A study of Homo sapiens with 12 samples.

Results

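The AP-2 transcription factors and their cofactors were followed here as 8 genes, taken from the deposited count table by symbol. They were the AP-2 genes TFAP2B, TFAP2A, TFAP2C and TFAP2E, the coactivator genes CITED2 and CITED4, and KCTD1 and WWOX, whose proteins restrain AP-2 factors. All 8 were among the 24302 features of the table, and all 8 passed the filter on low counts that left 14792 features for testing. RNA was sequenced from KYSE150, an established cell line of human esophageal squamous cell carcinoma (ESCC), in 12 libraries that formed 4 groups of 3. The GFP group carried the green fluorescent protein alone and served as the control. The GFP-TFAP2β group, called WT here, carried TFAP2β, the protein of TFAP2B, fused to GFP. The GFP-TFAP2β-Mut_IDR3 group carried a fusion altered in IDR3, and the GFP-TFAP2β-ΔIDR3 group, written dIDR3, carried a fusion labelled with the usual sign for a deletion of IDR3. IDR stands for intrinsically disordered region, a stretch of protein without fixed structure, and the series describes both altered forms as deficient in liquid-liquid phase separation. The labels give neither the promoter of the constructs, nor whether a group was 1 clone, nor whether replicates were separate cultures, so the tests weigh differences against the spread of these libraries alone, part of which may be technical.

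AP-2 proteins bind GC-rich DNA as dimers, either with themselves or with one another, and steer the development of the neural crest, the skin and other epithelia. TFAP2A and TFAP2C are the main AP-2 genes of squamous epithelium, whereas TFAP2B is best known from kidney, neural crest and neurons. CITED2 and CITED4 link DNA-bound AP-2 proteins to the histone acetyltransferases p300 and CBP. KCTD1 is known as an inhibitor of transcription by AP-2α, and WWOX holds the AP-2γ protein in the cytoplasm.

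Levels are given in CPM (counts scaled to the effective size of each library), and differences as log2 fold changes from edgeR's quasi-likelihood test with its Benjamini-Hochberg adjusted p over all genes tested. A gene was called at an adjusted p under 0.05, the value after ± is the SD over 3 libraries, and SE is the standard error of the log2 fold change. Libraries held 30.7 M to 43.5 M counts. All 9 squamous markers examined were present in every library, with KRT5 at 2670 to 3710 CPM and TP63 at 123 to 167 CPM. Others varied more over the libraries, with KRT14 at 45.2 to 865 CPM and KRT17 at 427 to 2570 CPM. The summed level of the 9 markers was 5690 to 5880 CPM in the GFP, 7230 to 8300 in the WT, 5750 to 5950 in the Mut_IDR3 and 4850 to 5110 in the dIDR3 libraries. The marker sums were at most 0.556 CPM for 5 fibroblast genes, 0.435 CPM for 4 leukocyte genes, 1.3 CPM for 2 endothelial genes and 0.183 CPM for 3 neural crest genes, with PTPRC, PECAM1 and DBH at 0 in all 12 libraries. In bulk RNA, fewer cells with a transcript and less transcript per cell cannot be told apart.

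TFAP2B was nearly silent in control cells and abundant wherever a fusion was expressed. The gene (ENSG00000008196, GRCh38 chromosome 6, 50818723 to 50847613, plus strand) had 0, 9 and 4 counts in the 3 GFP libraries, a mean of 0.124 ± 0.142 CPM. It stood at 286, 232 and 323 CPM in the WT libraries, at 687, 732 and 687 CPM in the Mut_IDR3 libraries and at 739, 742 and 632 CPM in the dIDR3 libraries. The GFP libraries lay below all others, the WT libraries lay below all mutant libraries, and the mutants overlapped. Over summed counts the ratio to GFP was 2400 with WT (95% counting interval 1400 to 4500), 5940 with Mut_IDR3 (3470 to 11200) and 5950 with dIDR3 (3480 to 11200). These intervals are exact binomial ones and cover counting error only. Because 9 of the 13 GFP counts came from GFP replicate 2, the ratios rested on it: without that library they were 5510 for WT (2150 to 20200), 13700 for Mut_IDR3 (5330 to 50100) and 13700 for dIDR3 (5340 to 50200). Without GFP replicate 1, which had 0 counts, the ratios were 1650 for WT (962 to 3090), 4080 for Mut_IDR3 (2380 to 7660) and 4080 for dIDR3 (2390 to 7670). Reads from a construct and from the cell's own TFAP2B are summed in these values.

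Both altered forms gave more TFAP2B RNA than WT, which applies to every comparison of a mutant with WT below. Mut_IDR3 exceeded WT by 1.32 on the log2 scale (SE 0.12, adjusted p = 5.11e-07), and dIDR3 did so by 1.33 (adjusted p = 3.07e-07). Between the mutants it was -0.01 (95% interval -0.25 to 0.24, adjusted p = 0.989). An effect of the altered IDR3 and one of the amount of TFAP2B RNA cannot be told apart in those comparisons, and protein levels were not analysed here.

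**Figure D1:**
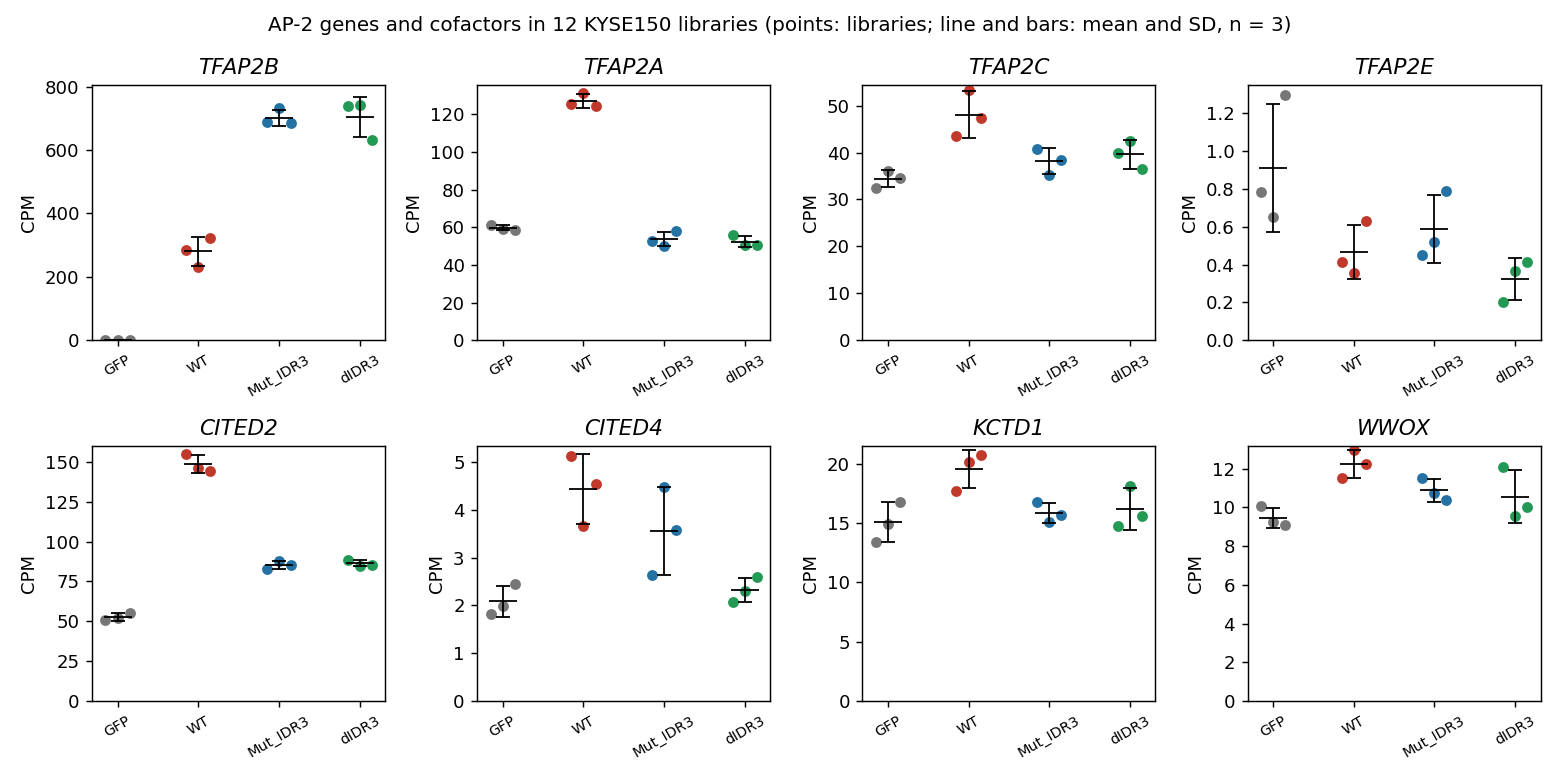
Level of each AP-2 gene and cofactor in CPM (y axes, linear and starting at 0) in the 4 groups (x axes); points are libraries, and lines with bars are means with SD (n = 3). TFAP2A and CITED2 stand highest in all 3 WT libraries, while TFAP2B stands highest in the 6 mutant libraries.

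The comparison of WT with GFP asks how the other AP-2 genes and the cofactors respond when unaltered TFAP2β is added. TFAP2A rose 2.13-fold, CITED2 rose the most in log2 terms among the 7 other genes, and CITED4, TFAP2C, KCTD1 and WWOX also rose. With TFAP2B, 7 of the 8 genes were called higher and 0 lower, and TFAP2E was not called. Over all genes tested, 54.9% were called in this comparison, 27.7% higher and 27.1% lower. Without TFAP2B, 6 of 7 were higher, with a median log2 fold change of 0.48, against a median of -0.01 over all genes tested. The libraries of the 2 groups did not overlap for any of the 8 genes, as was the case for 59.4% of all genes tested.

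TFAP2A, which encodes AP-2α, was at 61.2, 59.4 and 58.5 CPM with GFP and at 126, 132 and 125 CPM with WT. Every WT library was above every GFP library, and the fold change was 1.09 in log2 (SE 0.06, adjusted p = 4.51e-09). CITED2 was at 50.7, 52.3 and 55.4 CPM with GFP and at 155, 146 and 144 CPM with WT, which is 1.49 in log2 (SE 0.05, adjusted p = 2.6e-11). Among the AP-2 genes and cofactors other than TFAP2B it had the lowest adjusted p in this comparison. CITED4, the second coactivator gene, was much less abundant, at 1.82, 1.99 and 2.45 CPM with GFP and 5.12, 3.67 and 4.54 CPM with WT. Its log2 fold change was 1.09 (SE 0.23, adjusted p = 0.000804), or 0.75 (adjusted p = 0.0114) in a fit with the trend of fold change with GC content removed.

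The DNA just upstream of the start sites of TFAP2A, CITED2 and CITED4 is shown because these were the genes, besides TFAP2B, with the largest rises. Stretches are the 250 bases before the first RefSeq start of each gene (GRCh38.p14), printed 5′ to 3′ on the gene's own strand. Capitals mark matches to GCCNNNGGC or GCCNNNNGGC, palindromic forms of the AP-2 binding motif that read the same on both strands. TFAP2A lies at chr6:10419660-10419909, CITED2 at chr6:139374649-139374898 and CITED4 at chr1:40862364-40862613, all on the minus strand.
TFAP2A: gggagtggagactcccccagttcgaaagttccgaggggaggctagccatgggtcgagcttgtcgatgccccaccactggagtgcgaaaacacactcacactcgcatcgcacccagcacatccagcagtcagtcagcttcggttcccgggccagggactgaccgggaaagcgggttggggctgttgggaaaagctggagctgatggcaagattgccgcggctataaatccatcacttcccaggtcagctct
CITED2: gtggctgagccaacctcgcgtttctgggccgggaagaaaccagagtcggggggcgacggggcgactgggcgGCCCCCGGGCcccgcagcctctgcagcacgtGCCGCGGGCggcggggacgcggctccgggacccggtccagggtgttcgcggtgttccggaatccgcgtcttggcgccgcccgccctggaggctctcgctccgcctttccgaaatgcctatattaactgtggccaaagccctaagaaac
CITED4: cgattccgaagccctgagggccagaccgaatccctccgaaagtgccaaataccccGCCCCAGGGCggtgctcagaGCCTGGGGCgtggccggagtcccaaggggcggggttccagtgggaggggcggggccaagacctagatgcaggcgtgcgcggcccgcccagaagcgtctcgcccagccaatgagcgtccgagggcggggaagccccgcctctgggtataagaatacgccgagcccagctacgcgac

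The CITED2 stretch held GCCCCCGGGC from 179 to 170 bases before the start and GCCGCGGGC from 148 to 140 bases before it. The CITED4 stretch held GCCCCAGGGC from 195 to 186 and GCCTGGGGC from 175 to 167 bases before its start. No match was in the TFAP2A stretch, so the 2 genes with matches and the 1 without all rose with WT. In RefSeq windows of 300 bases (250 before and 50 after the start), 36.7% of 35116 windows of all genes held at least 1 match, 23.2% for GCCNNNGGC and 21.4% for GCCNNNNGGC. Of 13 windows that belonged to 7 of the 8 genes, 5 held a match: 1 of 3 for CITED2, the only 1 for CITED4, 2 of 4 for KCTD1 and the only 1 for WWOX. The 1 window of TFAP2B, the 1 of TFAP2E and the 2 of TFAP2A held neither motif. TFAP2C has no window in the table used. A match is only a stretch of letters, and binding was not measured in these libraries.

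TFAP2C, which encodes AP-2γ, rose less than TFAP2A. Its level was 32.5, 36.1 and 34.5 CPM with GFP and 43.5, 53.4 and 47.4 CPM with WT, a rise of 0.48 in log2 (SE 0.09, adjusted p = 0.000332). A fit from which any trend of fold change with GC content was removed left 0.28 (adjusted p = 0.0195). TFAP2E, which encodes AP-2ε, was, of the 4 AP-2 genes followed here, the scarcest after TFAP2B in control cells, with 27, 21 and 56 counts in the GFP libraries and 15, 12 and 26 in the WT libraries. Its WT libraries lay below its GFP libraries in CPM, with a log2 difference of -0.96 (95% interval -1.99 to 0.07, adjusted p = 0.106), which was not called. With the GC trend removed it was called lower, at -1.32 (adjusted p = 0.0347).

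The inhibitor genes moved by smaller amounts. KCTD1 was at 13.4, 15 and 16.8 CPM with GFP and at 17.7, 20.2 and 20.8 CPM with WT (log2 fold change 0.37, SE 0.11, adjusted p = 0.00843). WWOX, at 10.1, 9.25 and 9.11 CPM with GFP and 11.5, 13 and 12.2 CPM with WT, had the same log2 fold change of 0.37 (SE 0.11, adjusted p = 0.0116). The groups did not overlap in either gene. The WWOX call was lost once the GC trend was removed (log2 fold change 0.12, adjusted p = 0.381). KCTD1 and WWOX span long stretches of the genome, 26454910 to 26657401 on chromosome 18 (minus strand) and 78099413 to 79212667 on chromosome 16 (plus strand), and overlap 5 and 20 other annotated genes. Since the strand setting of the counting is not given in the sources used here, reads of such genes cannot be told apart from theirs. The same holds for TFAP2A, CITED2 and TFAP2E, which have annotated antisense genes.

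**Figure D2:**
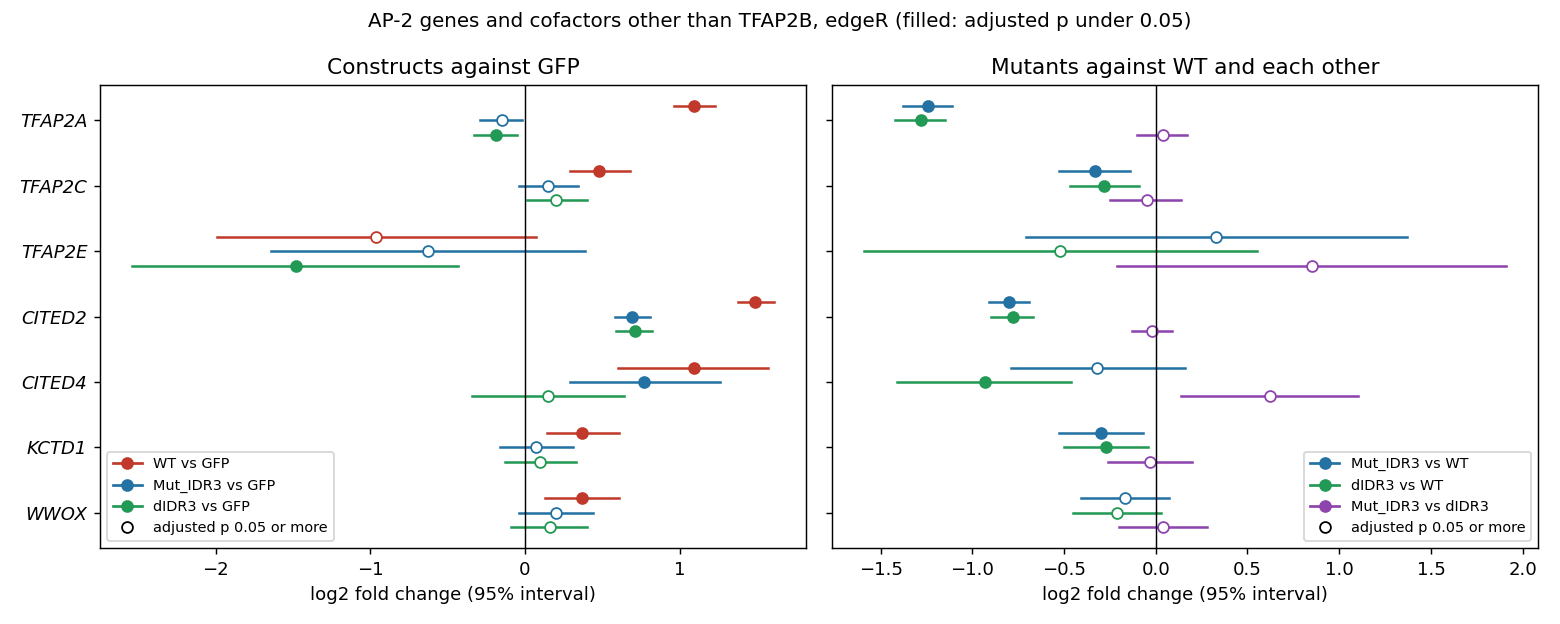
Log2 fold changes (x axes) with 95% intervals for the 7 AP-2 genes and cofactors other than TFAP2B, each construct against GFP on the left and the mutants against WT and each other on the right; filled points have an adjusted p under 0.05. TFAP2A moves 1.09 with WT and -0.15 and -0.19 with the mutants, whereas CITED2 stays above GFP in all 3 comparisons.

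With Mut_IDR3 in place of the unaltered protein, only CITED2 and CITED4 were called against GFP besides TFAP2B. All 3 were higher and 0 of the 8 genes were lower, while 21.1% of all genes were called in this comparison, 11.2% higher and 9.85% lower. The median log2 fold change of the 7 genes other than TFAP2B was 0.15, against -0.01 over all genes tested. The libraries did not overlap for 5 of the 8 genes and for 43.5% of all genes tested. CITED2 stood at 82.6, 87.8 and 85.2 CPM, all above the GFP libraries, with a log2 fold change of 0.69 (adjusted p = 3.12e-06). CITED4 stood at 2.64, 4.49 and 3.57 CPM, with a log2 fold change of 0.77 (adjusted p = 0.0264). Its call was lost with the GC trend removed (0.64, adjusted p = 0.0662) and when GFP replicate 1 (adjusted p = 0.0943), GFP replicate 2 (0.0777), Mut_IDR3 replicate 2 (0.141) or Mut_IDR3 replicate 3 (0.0631) was left out.

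TFAP2A did not rise with Mut_IDR3. It was at 53, 50.3 and 57.8 CPM, below every GFP library, with a log2 difference of -0.15 (95% interval -0.29 to -0.02) that was not called after adjustment (adjusted p = 0.105). With the GC trend removed it was called lower (-0.22, adjusted p = 0.0166). TFAP2C was at 40.7, 35.3 and 38.5 CPM and overlapped GFP, with a log2 difference of 0.15 (95% interval -0.04 to 0.34, adjusted p = 0.264). The log2 differences of KCTD1 and WWOX from GFP were 0.07 and 0.20, and that of TFAP2E, with 14, 20 and 34 counts, was -0.63. None of these 3 was called.

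With dIDR3, CITED2 rose against GFP besides TFAP2B, and TFAP2A and TFAP2E were called lower. Thus 2 of the 8 genes were higher and 2 lower, while 29% of all genes were called, 15.6% higher and 13.4% lower. Without TFAP2B the counts were 1 higher and 2 lower of 7. The 7 genes had a median log2 fold change of 0.15, and all genes tested had one of -0.02. The libraries did not overlap for 5 of the 8 genes and for 47% of all genes tested. CITED2 was at 88.6, 85 and 85.5 CPM, above every GFP library (log2 fold change 0.71, adjusted p = 4.69e-07). TFAP2A was at 55.8, 50.7 and 50.6 CPM, below every GFP library (log2 fold change -0.19, adjusted p = 0.0376). That small fall lost its call with GFP replicate 1 (adjusted p = 0.0985), GFP replicate 2 (0.0591), GFP replicate 3 (0.057), dIDR3 replicate 2 (0.0869) or dIDR3 replicate 3 (0.102) left out. With the GC trend removed and every library kept, it stayed called (-0.26, adjusted p = 0.00281).

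TFAP2E had 8, 14 and 17 counts in the dIDR3 libraries, which makes 0.325 ± 0.111 CPM against 0.909 ± 0.34 CPM with GFP. The log2 fold change was -1.48 (SE 0.49, adjusted p = 0.035). This call too was lost when GFP replicate 1 (adjusted p = 0.0535), GFP replicate 3 (0.165), dIDR3 replicate 1 (0.118) or dIDR3 replicate 2 (0.0621) was left out. CITED4, at 2.07, 2.31 and 2.59 CPM, overlapped its GFP libraries, and its log2 difference of 0.15 was not called (adjusted p = 0.664). TFAP2C (log2 difference 0.20, adjusted p = 0.106), WWOX (0.16) and KCTD1 (0.10) were not called either.

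Set against WT directly, the mutants held less RNA of TFAP2A, TFAP2C, CITED2 and KCTD1, and dIDR3 also held less of CITED4. In Mut_IDR3, 4 of the 8 genes were lower than in WT and 1, TFAP2B, was higher. In this comparison 44.1% of all genes were called, 23.2% higher and 20.9% lower. In dIDR3, 5 of the 8 were lower and TFAP2B was higher, where 52.3% of all genes were called, 27.2% higher and 25% lower. The medians of the 7 genes other than TFAP2B were -0.32 and -0.52 on the log2 scale, against 0.03 over all genes tested in both comparisons. Libraries did not overlap for 6 of the 8 genes with Mut_IDR3 and 5 with dIDR3, against 50.7% and 55.6% of all genes tested. All 3 comparisons with WT, that with GFP included, share the WT libraries.

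For TFAP2A the difference from WT was a log2 fold change of -1.24 in Mut_IDR3 (adjusted p = 1.31e-09) and -1.28 in dIDR3 (adjusted p = 7.75e-10). On the linear scale from the GFP mean, at 0%, to the WT mean, at 100%, TFAP2A was at -8.85% in Mut_IDR3 (-13.9% to -2.76% over libraries) and at -10.8% in dIDR3 (-13.4% to -5.79%). CITED2 lay between the control and WT. Its log2 differences from WT were -0.80 in Mut_IDR3 (adjusted p = 2.26e-08) and -0.78 in dIDR3 (adjusted p = 2.1e-08). On the same linear scale it was at 33.9% in Mut_IDR3 (31.1% to 36.6%) and at 35.1% in dIDR3 (33.7% to 37.4%). The means of TFAP2C (27.6% in Mut_IDR3 and 38.1% in dIDR3) and KCTD1 (17.9% and 25.2%) also lay between. So did those of WWOX (50.9% and 39%) and CITED4 (62.7% and 10%), all with wider ranges over libraries. In dIDR3 the libraries ran from -6.8% to 69.4% for KCTD1, 2.29% to 94.9% for WWOX and -0.686% to 21.3% for CITED4. In Mut_IDR3 those of CITED4 ran from 23.3% to 102%. Of TFAP2C, KCTD1, WWOX and CITED4, only CITED4 in Mut_IDR3 was called against GFP, and it was not called against WT. An intermediate level was therefore not shown for any of them.

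CITED4, TFAP2C and KCTD1 were also called lower in at least 1 mutant. CITED4 was lower in dIDR3 (log2 fold change -0.93, adjusted p = 0.00267) but not called in Mut_IDR3 (-0.32, adjusted p = 0.271). With the GC trend removed its difference in dIDR3 was -0.66 (adjusted p = 0.0215). TFAP2C was lower in Mut_IDR3 (-0.33, adjusted p = 0.00752) and in dIDR3 (-0.28, adjusted p = 0.0172). With the GC trend removed neither TFAP2C call remained (adjusted p = 0.0501 and 0.098), and that in dIDR3 was also lost without WT replicate 2 (0.0723) or dIDR3 replicate 3 (0.0589). KCTD1 was lower in Mut_IDR3 (-0.30, adjusted p = 0.0344) and in dIDR3 (-0.27, adjusted p = 0.0464). The Mut_IDR3 call of KCTD1 was lost without WT replicate 2 (adjusted p = 0.0769), WT replicate 3 (0.109), Mut_IDR3 replicate 2 (0.107) or Mut_IDR3 replicate 3 (0.0878). Its dIDR3 call was lost when only the 2 groups compared were fitted (adjusted p = 0.0646) and without WT replicate 2 (0.101), WT replicate 3 (0.141), dIDR3 replicate 1 (0.118) or dIDR3 replicate 3 (0.0936).

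WWOX did not pass the test against WT in Mut_IDR3 (-0.17, adjusted p = 0.243) or dIDR3 (-0.21, adjusted p = 0.126). The dIDR3 libraries of WWOX were at 12.1, 9.53 and 10 CPM. Without the first of them, dIDR3 replicate 1, the gene was called lower than in WT (-0.35, adjusted p = 0.0229). TFAP2E was not called in either comparison with WT, at 0.33 and -0.52 on the log2 scale.

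Between the mutants, edgeR called 0 of the 8 genes at an adjusted p under 0.05, and DESeq2 also called 0. In this comparison 10.8% of all genes tested were called, 5.54% higher and 5.24% lower (819 and 775 genes, or 1074 and 570 with upper-quartile scaling). At an unadjusted p under 0.05 there was 1 gene, CITED4, which was higher in Mut_IDR3 in every library (log2 difference 0.62, 95% interval 0.14 to 1.10, adjusted p = 0.0929). It was called when Mut_IDR3 replicate 1 was left out (0.80, adjusted p = 0.0488). The 95% intervals of the log2 difference were -0.13 to 0.09 for CITED2, -0.10 to 0.17 for TFAP2A and -0.25 to 0.14 for TFAP2C. For TFAP2E the interval was much wider, -0.21 to 1.91, at a log2 difference of 0.85, although its libraries did not overlap. Libraries did not overlap for 2 of the 8 genes and for 34.3% of all genes tested.

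The makeup of the AP-2 family RNA changed with these differences. Divided by the length of the longest annotated transcript, the CPM of the 4 AP-2 genes in GFP cells were 55.6% ± 1.82 TFAP2A, 42.8% ± 1.69 TFAP2C, 1.48% ± 0.56 TFAP2E and 0.0758% ± 0.0865 TFAP2B. With WT, TFAP2B made up 49% ± 5.22, TFAP2A 33.8% ± 2.95 and TFAP2C 17.1% ± 2.49. With either mutant TFAP2B made up 81.5%, TFAP2A 9.41% (Mut_IDR3) and 9.16% (dIDR3), and TFAP2C 8.94% and 9.24%. If the fusions hold only the coding sequence, the transcript length understates them. Per coding length, the TFAP2B share was 60.2% ± 4.99 with WT, 88% ± 1.02 with Mut_IDR3 and 88% ± 0.514 with dIDR3. Coding length was then used for all 4 genes, although transcripts of the cell's own genes also give reads outside it. For fusions of coding sequence alone, these shares may therefore still understate TFAP2B. The full lengths were also used for dIDR3. If its fusion lacks IDR3 it is shorter, and its TFAP2B values per length may be understated against Mut_IDR3.

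**Figure D3:**
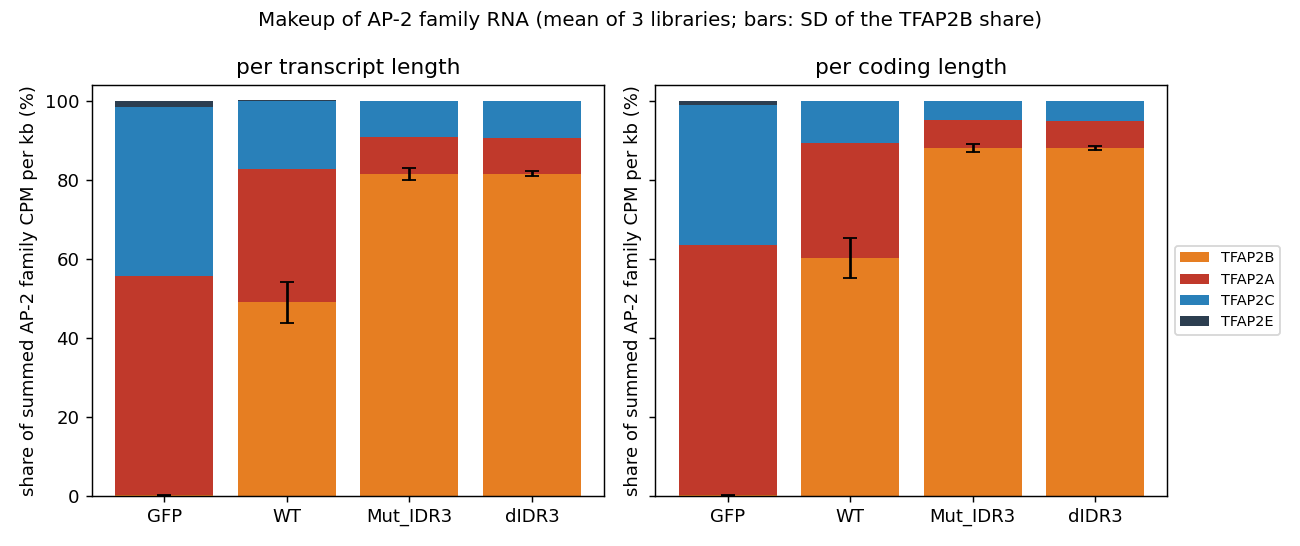
Share of each AP-2 gene in the summed CPM per kilobase of the 4 AP-2 genes (y axes, %) in the 4 groups (x axes), per transcript length on the left and per coding length on the right; stacked bars are means of 3 libraries, and error bars are the SD of the TFAP2B share. TFAP2B goes from 0.0758% with GFP to 49% with WT and 81.5% with both mutants per transcript length.

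Ranked by level per kilobase of transcript in GFP cells, CITED2 (22.4 CPM per kb) stood above TFAP2A (15.6), TFAP2C (12), WWOX (3.82), KCTD1 (3.28), CITED4 (1.59), TFAP2E (0.415) and TFAP2B (0.0215). No neighbours in that order overlapped between libraries, but the lowest WWOX and the highest KCTD1 library both rounded to 3.67 CPM per kb. In WT, CITED2 (63.1 CPM per kb) was followed by TFAP2B (48.6) and TFAP2A (33.2), and KCTD1 (4.26) overlapped CITED4 (3.38). Per kilobase of coding sequence the order of CITED2 and TFAP2B in WT turned, with TFAP2B at 203 ± 33 and CITED2 at 180 ± 6.9. Which length suits the fusion RNA is not given in the labels. In both mutants TFAP2B led with 122 CPM per kb, ahead of CITED2 with 36.2 in Mut_IDR3 and 36.7 in dIDR3. TFAP2A and TFAP2C overlapped in both mutants, at 14 and 13.3 CPM per kb in Mut_IDR3 and at 13.7 and 13.8 in dIDR3. KCTD1 also overlapped CITED4 in Mut_IDR3, and WWOX overlapped KCTD1 in dIDR3.

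Across the 12 libraries the 8 genes did not share 1 pattern. Pearson's r of log2 CPM was 0.87 between TFAP2C and KCTD1, 0.85 between TFAP2C and CITED2 and 0.75 between TFAP2A and TFAP2C, but 0.10 between TFAP2A and TFAP2B. TFAP2E was negatively related to TFAP2B (r = -0.67). All libraries enter each value, and the differences between the 4 groups make up much of it, so these are descriptions. Likeness was sought over some 10073 other genes whose mean reached 5 CPM. Those most like TFAP2A were OASL, NFE2L3 and LGALS1, each with r = 0.992. Pearson's r does not measure the size of a change, and that of OASL was far larger than that of TFAP2A. OASL had 14.6 ± 0.951 CPM in the GFP, 1400 ± 32.7 in the WT, 9.41 ± 1.31 in the Mut_IDR3 and 6.94 ± 0.268 in the dIDR3 libraries. LGALS1, for example, had 456 ± 11.9 CPM in the GFP, 1010 ± 31.9 in the WT, 421 ± 8.25 in the Mut_IDR3 and 407 ± 23.6 in the dIDR3 libraries. Most like CITED2 were TOMM34 (r = 0.989), PPP1R11 (0.987) and SEC13 (0.985). TOMM34 had 109 ± 4 CPM in the GFP, 173 ± 6.53 in the WT, 134 ± 6.2 in the Mut_IDR3 and 137 ± 5.27 in the dIDR3 libraries. Most like TFAP2B were PCBP1 (r = 0.983), SLC39A14 (0.975) and GOT2 (0.975). PCBP1 had 364 ± 13.3 CPM in the GFP, 469 ± 2.15 in the WT, 463 ± 9.5 in the Mut_IDR3 and 472 ± 5.81 in the dIDR3 libraries. It thus did not share the rise of TFAP2B from WT to the mutants. The highest values were 0.957 for TFAP2C (TADA2B), 0.96 for CITED4 (ASPSCR1), 0.924 for WWOX (UCKL1), 0.902 for TFAP2E (TCP11L1) and 0.897 for KCTD1 (LATS2).

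Other partners of AP-2 proteins, a list of 16 genes of which 15 were tested, moved in both directions. With WT, 2 of the 15 were higher than in GFP and 4 lower, with a median log2 fold change of -0.06. Of all genes tested, 27.7% were higher and 27.1% lower in this comparison. PARP1, which encodes a poly(ADP-ribose) polymerase, had 204 ± 5.25 CPM with GFP and 227 ± 4.2 CPM with WT (a rise of 0.16 in log2, adjusted p = 0.0057). NPM1, the gene of nucleophosmin, fell from 1630 ± 19.4 to 1070 ± 171 CPM (-0.61, adjusted p = 1.22e-05). HDAC2, the gene of a histone deacetylase, fell from 138 ± 2.23 to 85.8 ± 11.3 CPM (-0.68, adjusted p = 2.38e-06). APC, which restrains Wnt signalling, fell by 0.94 and YEATS4, which encodes a chromatin reader, by 0.37 on the log2 scale. With the GC trend removed, PARP1 (0.03), HDAC2 (-0.04) and APC (-0.39) lost their calls and YEATS4 turned to 0.10, while 1 partner was higher and 5 lower. NPM1 has near-identical copies in the genome, so its reads are uncertain.

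With the mutants the same 15 partners gave other counts. Against GFP, 4 were higher and 1 lower with Mut_IDR3, with a median of 0.12, and 4 were higher and 0 lower with dIDR3, with a median of 0.17. All genes tested were called at 21.1% and 29% in these comparisons. With the GC trend removed the counts were 3 higher and 0 lower with Mut_IDR3 and 6 and 0 with dIDR3, and fitting only the 2 groups gave 7 and 0 with dIDR3. The 5 calls with Mut_IDR3 became 3 without GFP replicate 1 or 3, and 2 without GFP replicate 2, Mut_IDR3 replicate 2 or Mut_IDR3 replicate 3. Against WT, 4 were higher and 1 lower with Mut_IDR3 (median 0.16), and 8 were higher and 1 lower with dIDR3 (median 0.22), where 44.1% and 52.3% of all genes were called. The Mut_IDR3 counts were 5 and 0 with upper-quartile scaling, 7 and 0 with the GC trend removed, and 3 and 0 with the 2 groups fitted alone, or without WT replicate 1 or Mut_IDR3 replicate 2. The dIDR3 counts were 10 and 0 with the GC trend removed and 4 and 1 without dIDR3 replicate 2. NPM1 was at 1550 ± 53.3 CPM with Mut_IDR3 and 1860 ± 15.3 with dIDR3, and HDAC2 at 127 ± 6.51 and 146 ± 3.92 CPM. All 4 values exceeded WT (adjusted p = 7.2e-05 and 9.72e-07 for NPM1, and 2.98e-05 and 8.43e-07 for HDAC2). Between the mutants 1 partner, NPM1, was lower in Mut_IDR3 and 0 were higher, where 10.8% of all genes were called. No partner was called with upper-quartile scaling or with any 1 library of the mutants left out, and 3 were lower with the GC trend removed.

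Genes described as AP-2 targets, a list of 36 of which 34 were tested, rose more often than they fell with WT: 21 rose, 5 fell and 8 were not called against GFP, where 27.7% of all genes were higher and 27.1% lower. The median log2 fold change was 0.68, or 0.66 over the 33 without IGFBP5, which had almost no counts outside WT, against -0.01 over all genes tested. The list was chosen with earlier results of these data known, so these counts and medians are descriptions only. GATA3, a transcription factor gene, rose from 9.18 ± 0.763 to 43.5 ± 1.84 CPM (2.24, adjusted p = 6.03e-11). KRT14, a basal squamous keratin gene, rose from 227 ± 2.2 to 806 ± 68.1 CPM (1.83, adjusted p = 8.56e-12), PLAU, which encodes urokinase, from 64.3 ± 2.29 to 182 ± 7.09 CPM (1.5), and CLU, which encodes clusterin, from 209 ± 5.36 to 405 ± 9.35 CPM (0.95). CRABP2, which encodes a carrier of retinoic acid, fell from 12.2 ± 1.72 to 3.67 ± 0.376 CPM (-1.73, adjusted p = 8.52e-08). F2R, the gene of a thrombin receptor, fell by 0.35 on the log2 scale, KRT5, the keratin partner of KRT14, by 0.24, and BCL2, which blocks apoptosis, by 0.68. Reads of KRT14 are uncertain because close copies of the gene exist.

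Of the 34 targets, 21 to 22 were lower with a mutant than with WT. Against GFP, 9 were higher and 4 lower with Mut_IDR3 (median 0.06), and 13 were higher and 6 lower with dIDR3 (median 0.11). All genes tested were called at 21.1% and 29%. With the GC trend removed the counts were 7 higher and 6 lower with Mut_IDR3 and 7 and 9 with dIDR3. The dIDR3 counts were 9 and 6 with upper-quartile scaling, 7 and 5 with no filter on low counts, 8 and 4 without GFP replicate 2, and 6 and 5 without GFP replicate 3 or dIDR3 replicate 1. Against WT, 6 were higher and 22 lower with Mut_IDR3 (median -0.55, or -0.44 without IGFBP5), and 7 were higher and 21 lower with dIDR3 (median -0.56), beside a median of 0.03 over all genes tested, of which 44.1% and 52.3% were called. GATA3 was at 9.4 ± 0.461 CPM with Mut_IDR3 and 11.1 ± 0.51 with dIDR3, both below WT (-2.21 and -1.97). KRT14 went below the control, to 56.2 ± 2.66 CPM with Mut_IDR3 and 46.6 ± 1.65 with dIDR3, log2 fold changes against GFP of -2.02 (adjusted p = 3.51e-11) and -2.29 (adjusted p = 4.46e-12). CRABP2 was higher than in WT with both mutants (1.04 and 1.37) and lower than in GFP with Mut_IDR3 (-0.70, adjusted p = 0.00251). Its fall with dIDR3 against GFP (-0.37, adjusted p = 0.0465) lost its call with no filter on low counts (adjusted p = 0.0655) and without GFP replicate 2 (0.173), GFP replicate 3 (0.0521), dIDR3 replicate 2 (0.0806) or dIDR3 replicate 3 (0.12). Between the mutants 5 targets were higher in Mut_IDR3, 4 lower and 25 not called, where 10.8% of all genes were called, 5.54% higher and 5.24% lower. The counts were 7 and 7 with the GC trend removed, 8 and 4 with upper-quartile scaling, 9 and 4 with DESeq2, and 11 and 4 with the 2 groups fitted alone. Over all genes, 1594 were called in the main fit, and 2096, 1644, 2104 and 2290 under these settings in turn.

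**Figure D4:**
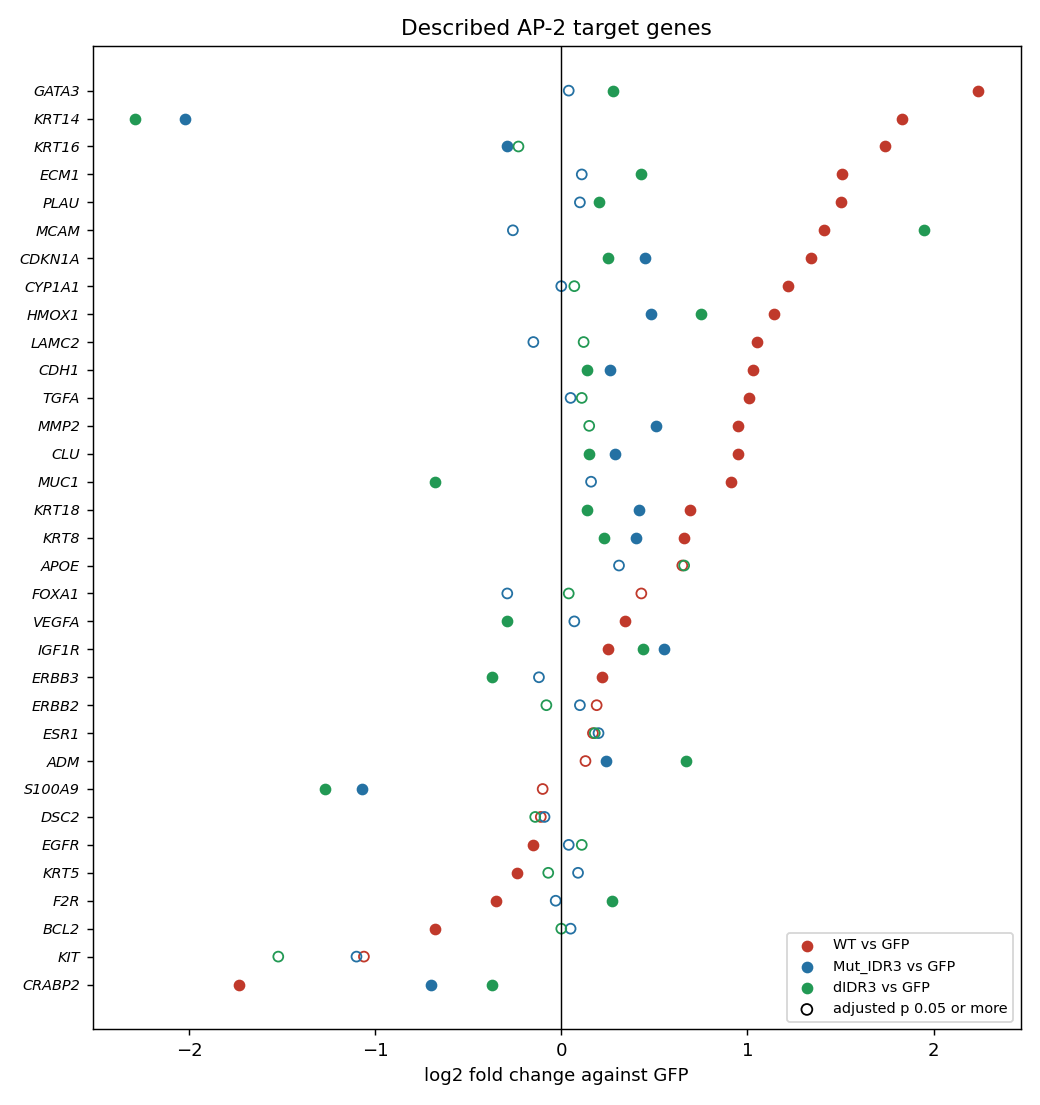
Log2 fold change against GFP (x axis) of 33 genes described as AP-2 targets (y axis, ordered by the WT value) for each construct; filled points have an adjusted p under 0.05, and IGFBP5, MMP9 and RET are left out because their counts are too low in at least 1 group. Most WT points lie right of 0 (21 higher and 5 lower of 34 tested, IGFBP5 included), and KRT14 lies at 1.83 with WT but at -2.02 and -2.29 with the mutants.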

How the data were processed

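Gene-level RNA-seq counts were deposited by the authors as 1 table of 12 libraries and were used as deposited. The submitters' processing notes name the GRCh38/hg38 build and, as tools, HISAT2, StringTie and Trim Galore. RNA came from a Qiagen kit and libraries from a SMARTer mRNA kit, per the labels' protocols. Which program counted reads, with which annotation and strand setting, is not given in the sources used here.

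Features were filtered with filterByExpr (14792 tested), TMM-scaled and fitted with all 4 groups by edgeR (quasi-likelihood F test, 8 residual degrees of freedom), with Benjamini-Hochberg adjustment over all genes tested in each of 6 comparisons. With 3 libraries in each group, the smallest exact p is 0.1. CPM used effective library sizes, and log2 CPM a prior count of 2. Gene lengths, GC content and coordinates came from GENCODE on GRCh38, and promoter sequences from RefSeq (GRCh38.p14). Software was edgeR 4.0.16, DESeq2 1.42.0 and limma 3.58.1 under R 4.3.3.

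The 8 genes and the lists of partners, targets and markers were chosen with earlier results of these data known. All 8 genes are named. Up to 4 called members of a list in each direction with the lowest adjusted p in WT against GFP are named, with up to 2 in the comparisons of mutants with WT, and the 3 genes most like each of the 8 were sought; some genes that met these rules are not reported here. Alternatives tried were DESeq2, upper-quartile or median-ratio scaling, leaving out the filter or requiring 1 CPM in 3 libraries, the replicate number as a block, removal of the GC trend (offsets over 20 bins, 2068 tested features without a GC value left as they were), only the 2 groups compared, and each library left out. Applying them to the lists, and leaving single GFP libraries out of the TFAP2B ratio, was chosen after seeing the data. The scripts were first tested on simulated data whose changes were known.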

Additional observations from a re-analysis of the deposited data

How the results depend on the processing

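Of 714 values recomputed for the 8 genes under the settings listed above, 401 kept their direction and side of the threshold under another setting and 250 with a library left out. Calls were lost in 10 and 23, gained in 4 and 2, and the direction turned in 11 and 13. The turns under another setting were all between the mutants and near 0: TFAP2B became 0 with median-ratio scaling, no filter and DESeq2, 0.02 with upper-quartile scaling, and 0.01 with the 1 CPM filter, the GC trend removed (with or without the block) and 2 groups fitted; CITED2 became 0.01 with upper-quartile scaling, and KCTD1 0.02 with the GC trend removed, with or without the block. With a library left out, differences between the mutants ran from -0.07 to 0.04 for TFAP2B, -0.02 to 0.09 for TFAP2A, -0.10 to 0.01 for TFAP2C, -0.04 to 0.01 for CITED2, -0.08 to 0.07 for KCTD1 and -0.02 to 0.16 for WWOX. KCTD1 ran from -0.01 to 0.15 in Mut_IDR3 and from 0 to 0.17 in dIDR3 against GFP. With a library left out, 2 to 3 of the 8 genes were called in dIDR3 against GFP and 0 to 1 between the mutants. The genes called of all tested then numbered 1566 to 2277 in Mut_IDR3 against GFP (3114 with every library) and 819 to 1143 between the mutants (1594). Fewer samples entered these fits.

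Among the partners, YEATS4 turned to 0.10 in WT against GFP with the GC trend removed, with or without the block. No pairing by replicate number was seen: same-numbered libraries had correlations of -0.07 to 0.08 in their deviations from the group means, and 3 of 12 correlated best with their own number. These values cannot show whether same-numbered libraries were prepared together. With the replicate block alone, TFAP2A in dIDR3 against GFP was no longer called (log2 fold change -0.19, adjusted p = 0.0583), nor was CRABP2 (adjusted p = 0.0693), and 3 partners were called in Mut_IDR3 against WT. With the block and the GC trend removed, 1893 genes were called in Mut_IDR3 against GFP. TFAP2E was not tested with the 1 CPM filter. At its depth, 8 to 56 counts per library, its intervals span over 1 log2 unit on each side. The causes of these changes were not tested.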

Other observations

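CITED1 and KCTD15, relatives of the coactivator and inhibitor genes that are named here after their values were seen, did not pass the test in WT against GFP. KCTD15 was at 40.8 CPM with GFP and 42.1 CPM with WT (log2 difference 0.04, adjusted p = 0.639 by edgeR). CITED1 was at 1.71 CPM with GFP and 1.32 CPM with WT (-0.36, adjusted p = 0.398). TFAP2D, the remaining AP-2 gene, had 2 counts over all 12 libraries and was not tested.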
